A study of Mus musculus with 15 samples.

Results

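The genes described are 10 genes for secreted growth factors, neuropeptides and related synaptic proteins of the dentate gyrus (DG), measured in RNA from ventral and dorsal DG (vDG and dDG) of wild-type (WT) mice and of conditional knockout (cKO) mice, in which Htr4, the gene of serotonin receptor 4 (5-HT4R), was deleted in the cells that express Cre. They were taken by symbol: Bdnf, Ntrk2, Vgf, Nrn1, Penk, Pdyn, Adcyap1, Nptx2, Inhba and Igf1, 10 of the 32657 genes in the count tables. In WT mice Adcyap1 and Vgf were higher in vDG, and Penk, Inhba, Nptx2, Pdyn and Nrn1 were higher in dDG. Of these 7 genes 6 passed the same test in cKO mice. Of all genes tested, 9.26% were higher and 6.09% lower in vDG in WT, and 8.56% and 8.47% in cKO. The WT groups of Vgf overlapped, and its WT call was lost without vDG input replicate 2 or 3.

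Neurotrophins and neuropeptides are made as precursors, stored in dense core vesicles and released by active neurons to act on receptors of nearby cells. BDNF signals through the receptor tyrosine kinase TrkB, encoded by Ntrk2, which neurons and astrocytes both carry. In granule cells, the principal neurons of the DG, several of these genes respond to neuronal activity, and dynorphin and enkephalin peptides are present in the mossy fiber terminals.

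RNA was analyzed by translating ribosome affinity purification (TRAP), in which EGFP-tagged ribosomes are pulled down with anti-EGFP antibodies so that the RNA bound to them (IP) comes from the tagged cells, and by sequencing of whole tissue RNA (input). There were 15 libraries in 6 groups, with 3 WT and 2 cKO libraries each for vDG IP, vDG input and dDG input. WT mice were Drd3-Cre KI198::Rosa26-fsTRAP and cKO mice were Drd3-Cre KI198::Rosa26-fsTRAP::Htr4-Floxed, so that both genotypes carried the Cre driver and the ribosome tag and only cKO mice carried the floxed Htr4 alleles. The mice were 8 to 12 weeks old, and each library was a pool of mice. The records give 3 mice for an IP pool and 2 for an input pool, whereas the methods give 1 male and 1 female. In the records, input RNA is said to come from cortex, whereas the titles give vDG or dDG, and the 2 cKO dDG libraries carry other replicate numbers in the deposited data than in the titles, which were used here. Cre came from a Drd3 BAC line that labels mature granule cells and hilar mossy cells of the DG, with some CA cells, and not interneurons or glia.

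Libraries held 19039295 to 30451430 counts on genes. The dissection markers separated the regions, since the dDG gene Lct was at 30.0 to 48.4 CPM (read counts relative to the TMM-scaled library size) in vDG inputs and 128 to 181 CPM in dDG inputs, and the vDG gene Trhr was at 14.7 to 31.5 and 0.118 to 0.718 CPM. The deleted part of Htr4 is a single exon, and the gene-level counts of Htr4, which sum all exons, were not lower in cKO (26.7 to 29.8 CPM in vDG IP against 13.6 to 16.0 in WT), so these counts do not check the deletion. WT dDG inputs differed among themselves in the summed level of 4 choroid plexus markers (32.3, 95.7 and 145 CPM).

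Promoter sequences are shown for 4 of the genes called between vDG and dDG in at least 1 genotype, with Adcyap1 higher in vDG and Inhba higher in dDG in both genotypes, Pdyn higher in dDG in WT and Bdnf higher in dDG in cKO. RefSeq promoters (build GRCm38.p6) matched 6 of the 10 genes with 14 start sites, and each sequence is the 250 bases before a start site, read 5′ to 3′ on the strand of the gene. The cAMP response element (CRE) is the site of CREB, a transcription factor activated by the cAMP pathway that Gs-coupled receptors such as 5-HT4R use. Capitals mark its half-site, CGTCA on either strand.
Adcyap1 (chr17:93198767-93199016, + strand): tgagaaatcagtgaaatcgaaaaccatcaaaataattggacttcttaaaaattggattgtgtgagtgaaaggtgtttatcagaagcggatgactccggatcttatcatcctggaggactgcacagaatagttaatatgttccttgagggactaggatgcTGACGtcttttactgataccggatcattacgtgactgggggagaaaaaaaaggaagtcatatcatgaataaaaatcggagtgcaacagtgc
Bdnf, the third of its 7 start sites (chr2:109692186-109692435, + strand): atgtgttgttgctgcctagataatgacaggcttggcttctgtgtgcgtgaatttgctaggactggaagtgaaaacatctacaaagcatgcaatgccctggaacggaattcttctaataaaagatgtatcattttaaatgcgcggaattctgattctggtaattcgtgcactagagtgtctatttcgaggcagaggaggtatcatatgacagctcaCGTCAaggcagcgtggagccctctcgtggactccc
Pdyn, the first of its 2 start sites (chr2:129699939-129700188, - strand): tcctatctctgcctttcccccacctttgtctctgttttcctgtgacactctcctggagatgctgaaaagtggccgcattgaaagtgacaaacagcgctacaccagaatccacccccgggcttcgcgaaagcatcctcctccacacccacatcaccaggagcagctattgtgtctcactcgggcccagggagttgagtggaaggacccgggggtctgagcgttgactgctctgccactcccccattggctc
Inhba (chr13:16011601-16011850, + strand): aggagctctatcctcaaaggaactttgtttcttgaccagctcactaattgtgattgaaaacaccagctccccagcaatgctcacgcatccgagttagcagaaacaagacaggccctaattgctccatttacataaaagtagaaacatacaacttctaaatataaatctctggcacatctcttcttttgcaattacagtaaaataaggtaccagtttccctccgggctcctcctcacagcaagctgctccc

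The half-site was in 3 of the 14 promoters, those of Adcyap1 (both start sites, which share a single match) and the third start site of Bdnf, and it was in 17.8% of 32851 promoters of the same length. The full CRE, TGACGTCA, was in none of the 14 promoters and in 1.55% of all. Neither TGAGTCA, the site of AP-1 (4.46% of all promoters), nor GCGGGGGCG, a site of EGR factors (2.57%), was in any of the 14 on either strand. CGTCA lies within the full CRE. A match describes the letters of these windows only.

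**Figure D1:**
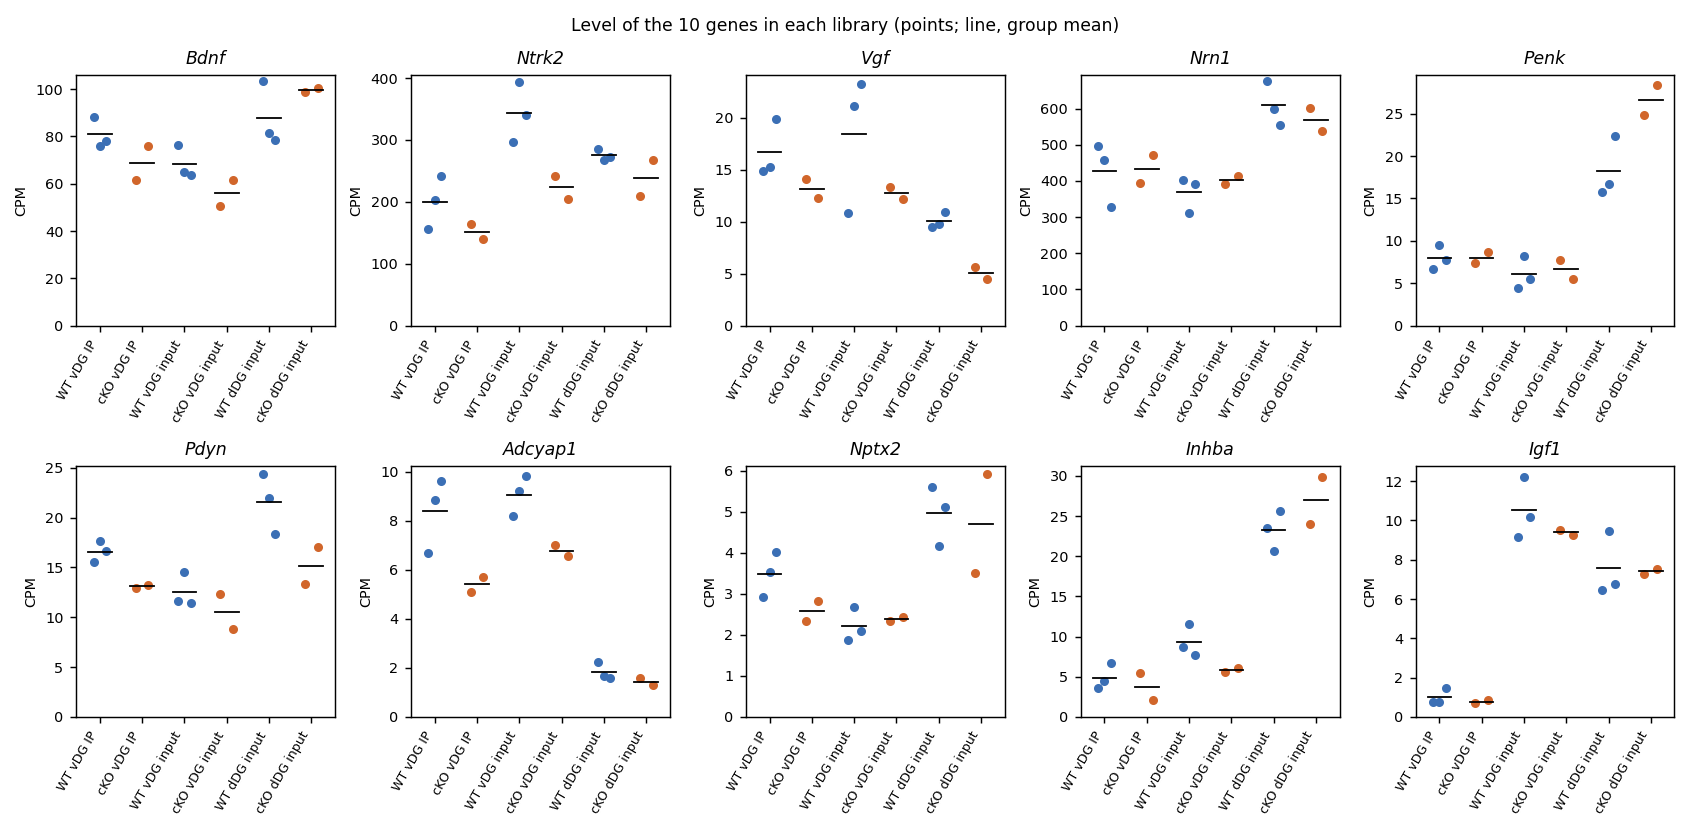
Level of each of the 10 genes in CPM (y axis, from 0) in the 15 libraries, by group (x axis; blue WT, orange cKO); points are libraries and lines are group means. Adcyap1 lay at 1.30 to 2.24 CPM in the 5 dDG inputs and at 5.11 CPM or more in every vDG library, and Igf1 lay at 1.49 CPM or less in the 5 IPs and at 6.46 CPM or more in every input.

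Per kilobase of exon, Nrn1 was the most abundant of the 10 genes. Nrn1 encodes neuritin, a membrane-anchored protein that promotes neurite growth. In WT vDG input it was at 164 ± 22 CPM per kb (mean ± SD, n = 3). Ntrk2 followed at 17.8 ± 2.5 CPM per kb and Bdnf at 11 ± 1.1 CPM per kb. Vgf (6.18 ± 2.2), Pdyn (4.34 ± 0.60) and Penk (3.69 ± 1.2 CPM per kb) came next, and their spreads overlapped. Adcyap1 (2.4 ± 0.22), Inhba (1.46 ± 0.32), Igf1 (1.06 ± 0.16) and Nptx2 (0.874 ± 0.17 CPM per kb) were lowest, and Inhba overlapped Igf1, which overlapped Nptx2. Counts behind single values ran from 15 (Igf1 in a cKO vDG IP) to 16850 (Nrn1). All 10 genes passed the filter on low counts in every comparison.

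The first comparison set vDG against dDG input. In WT mice 2 genes were higher and 5 were lower in vDG at an FDR (Benjamini-Hochberg adjusted p of edgeR's quasi-likelihood test) under 0.05, where 9.26% of the 15412 genes tested were higher and 6.09% were lower. In cKO mice 2 were higher and 5 were lower, where 8.56% of 15505 genes were higher and 8.47% were lower. The median log2 fold change of the 10 genes was -0.53 in WT and -0.52 in cKO, and that of all genes was -0.01 and 0.01. WT and cKO comparisons shared no libraries.

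Adcyap1 encodes PACAP, a peptide that raises cAMP in its target cells. WT vDG inputs had 8.19, 9.21 and 9.82 CPM and WT dDG inputs had 2.24, 1.69 and 1.58 CPM. cKO vDG inputs had 7.03 and 6.55 CPM and cKO dDG inputs had 1.58 and 1.30 CPM. The vDG libraries were all above the dDG libraries in both genotypes. The log2 fold change was 2.32 ± 0.22 (SE; FDR = 1.15e-06) in WT and 2.22 ± 0.27 (FDR = 6.03e-06) in cKO, where the fold was 4.65.

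Vgf encodes a neurotrophin-induced granin-like precursor of several peptides. WT vDG inputs had 10.8, 21.1 and 23.2 CPM and WT dDG inputs had 9.47, 9.79 and 10.9 CPM, so the lowest vDG library fell within the dDG range. cKO vDG inputs had 13.4 and 12.2 CPM and cKO dDG inputs had 5.59 and 4.47 CPM, with no overlap. Vgf had a log2 fold change of 0.88 ± 0.22 (FDR = 0.00958) in WT and 1.33 ± 0.20 (FDR = 5.88e-05) in cKO. Without WT vDG input replicate 2 or 3 the WT value was 0.77 (FDR = 0.0718) and 0.68 (FDR = 0.0741), past the threshold no longer.

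Penk and Pdyn encode the precursors of enkephalins and dynorphins. For Penk, WT vDG inputs had 4.39, 8.18 and 5.54 CPM and WT dDG inputs had 15.7, 16.7 and 22.3 CPM, and the cKO values were 7.72 and 5.52 CPM in vDG and 24.9 and 28.4 CPM in dDG. Every dDG library was above every vDG library. The log2 fold change of Penk was -1.58 ± 0.21 (FDR = 4.92e-05) in WT and -2.02 ± 0.18 (FDR = 1.13e-07) in cKO, 4.05-fold lower. For Pdyn, WT vDG inputs had 11.7, 14.5 and 11.4 CPM and WT dDG inputs had 24.4, 21.9 and 18.3 CPM, and the cKO values were 12.3 and 8.80 CPM in vDG and 13.3 and 17.0 CPM in dDG. The groups did not overlap in either genotype, and the log2 fold change of Pdyn was -0.77 ± 0.16 (FDR = 0.00230) in WT and -0.53 ± 0.19 (FDR = 0.0612) in cKO, where it missed the threshold. Leaving out single libraries, the cKO value of Pdyn ran from -0.80 (FDR = 0.00214, without vDG input replicate 1) to -0.32 (FDR = 0.275, without vDG input replicate 2), and it passed without dDG input replicate 1 (FDR = 0.0166) and not without dDG input replicate 2 (FDR = 0.478). Without the count filter Pdyn passed in cKO (-0.53, FDR = 0.0289).

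Inhba encodes the subunit of activin A, a secreted TGF-β family ligand. WT vDG inputs had 8.64, 11.6 and 7.72 CPM and WT dDG inputs had 23.5, 20.7 and 25.7 CPM. cKO vDG inputs had 5.61 and 6.07 CPM and cKO dDG inputs had 24.0 and 29.9 CPM. All dDG libraries were above all vDG libraries. Inhba had a log2 fold change of -1.30 ± 0.17 (FDR = 3.50e-05) in WT, 2.47-fold lower in vDG, and -2.21 ± 0.17 (FDR = 2.07e-08) in cKO, 4.64-fold lower.

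Nptx2 encodes neuronal pentraxin 2, a secreted protein that clusters AMPA receptors. WT vDG inputs had 1.86, 2.68 and 2.11 CPM and WT dDG inputs had 5.61, 4.17 and 5.13 CPM, without overlap. cKO vDG inputs had 2.34 and 2.43 CPM and cKO dDG inputs had 3.51 and 5.92 CPM. Nptx2 had a log2 fold change of -1.15 ± 0.24 (FDR = 0.00338) in WT and -0.98 ± 0.30 (FDR = 0.0252) in cKO. Without cKO dDG input replicate 2 the cKO value was -0.55 (FDR = 0.493).

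For Nrn1, WT vDG inputs had 402, 311 and 390 CPM and WT dDG inputs had 676, 599 and 554 CPM, and the cKO values were 390 and 414 CPM in vDG and 601 and 537 CPM in dDG. Every dDG library was above every vDG library, with a log2 fold change of -0.71 ± 0.12 (FDR = 0.000577) in WT and -0.51 ± 0.11 (FDR = 0.00238) in cKO. In a fit over all 15 libraries the cKO value was -0.52 (FDR = 0.0649). For Bdnf, WT vDG inputs had 76.3, 65.0 and 63.8 CPM and WT dDG inputs had 104, 81.5 and 78.7 CPM, and the cKO values were 50.4 and 61.6 CPM in vDG and 98.8 and 101 CPM in dDG. The dDG libraries were above the vDG libraries of the same genotype. The log2 fold change of Bdnf was -0.84 ± 0.12 (FDR = 5.19e-05) in cKO, and in WT it was -0.35 ± 0.13 (FDR = 0.0872), short of the threshold.

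Ntrk2 and Igf1, the gene of insulin-like growth factor 1, passed the threshold in neither genotype. For Ntrk2, WT vDG inputs had 297, 393 and 340 CPM against 285, 268 and 273 CPM in WT dDG inputs (log2 fold change 0.33 ± 0.11, FDR = 0.0594), and cKO inputs had 242 and 205 CPM in vDG and 209 and 268 CPM in dDG. For Igf1, WT vDG inputs had 9.16, 12.2 and 10.2 CPM against 6.46, 9.44 and 6.77 CPM in WT dDG inputs (0.50 ± 0.19, FDR = 0.0904), and cKO inputs had 9.52 and 9.28 CPM in vDG and 7.29 and 7.55 CPM in dDG. The WT groups of Ntrk2 did not overlap, and those of Igf1 did. Ntrk2 passed in WT in 4 of 12 alternatives, without WT vDG input replicate 1 (0.42, FDR = 0.0277), with library size alone (FDR = 0.0308), without the count filter (FDR = 0.0353) and in DESeq2 (adjusted p = 0.0492). Igf1 passed without WT dDG input replicate 2 (0.68, FDR = 0.0409).

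**Figure D2:**
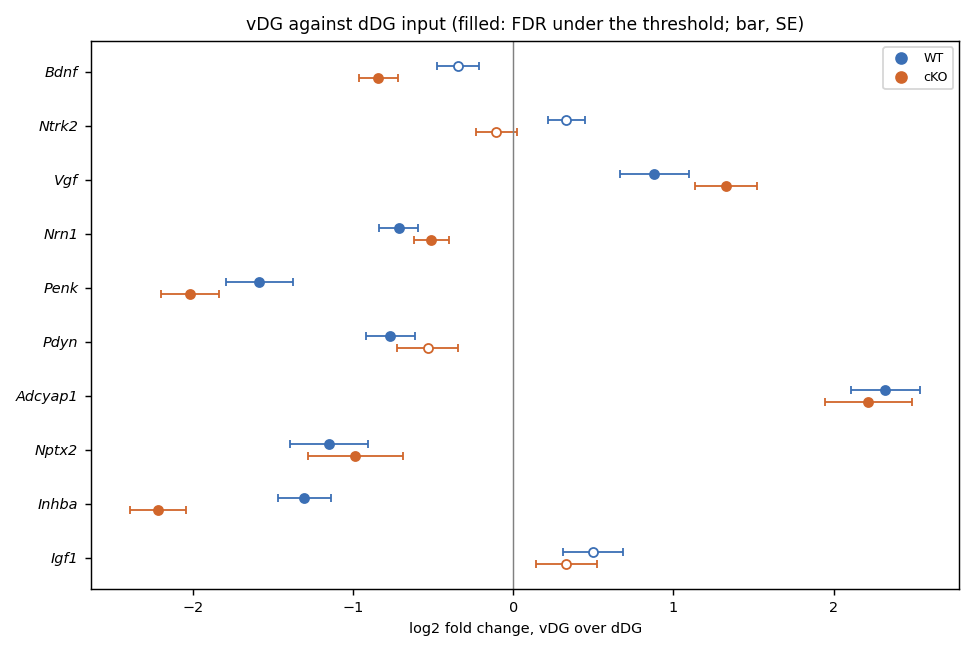
Log2 fold change of vDG over dDG input (x axis) for the 10 genes (y axis) in WT (blue) and cKO (orange); bars are the SE and filled points passed an FDR of 0.05. Adcyap1 and Vgf lie right of 0 and Inhba, Penk, Nptx2 and Nrn1 left of 0 with filled points in both genotypes.

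The cell type markers differed between regions as well. The summed level of 6 granule cell markers was 1652 to 2007 CPM in WT vDG inputs and 2863 to 3359 CPM in WT dDG inputs, and 4 of the 6 were lower in vDG at the FDR threshold. In cKO the sums were 1952 to 2076 and 2379 to 2755 CPM, and 4 of 6 were lower in vDG. The sum of 5 mossy cell markers was 94.9 to 120 CPM in WT vDG inputs and 26.1 to 30.8 CPM in WT dDG inputs, and of 4 tested mossy cell markers 1 was called higher in vDG in WT and 2 in cKO. The 6 CA pyramidal cell markers summed to 145 to 153 CPM in WT vDG inputs and 73.6 to 88.8 CPM in WT dDG inputs (3 higher and 1 lower), and the 7 interneuron markers to 446 to 519 and 292 to 356 CPM (3 higher). In cKO these sums were 126 to 136 and 92.7 to 101 CPM, and 380 to 385 and 316 to 340 CPM. The 5 oligodendrocyte markers summed to 322 to 402 CPM in WT vDG inputs and 430 to 454 CPM in WT dDG inputs (2 lower). In cKO they summed to 317 to 355 and 422 to 427 CPM (1 lower). In whole tissue RNA, fewer cells of a type and less RNA per cell cannot be told apart. The part of these differences in the dorsoventral values of the 10 genes was not tested.

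The second comparison set vDG IP against vDG input, which measures how far the RNA of tagged cells differed from that of the whole tissue. None of the 10 genes was higher in IP at an FDR under 0.05, where 7.73% of 15011 genes in WT and 11.8% of 15126 genes in cKO were higher. All 6 granule cell markers were above 0 in both genotypes, with 2 called higher in WT and 6 in cKO. They summed to 2368 to 2557 CPM in WT IPs and 1652 to 2007 CPM in WT inputs. In cKO they summed to 2594 to 2773 CPM in IPs and 1952 to 2076 CPM in inputs. Bdnf, at 0.27 (FDR = 0.174) in cKO, was called higher without cKO vDG IP replicate 1 (0.45, FDR = 0.0199). In WT 3 genes were lower (16.1% of all genes), and in cKO 2 were lower (15.7%). Igf1 was the single member to be depleted, meaning an FDR under 0.05 with a fold change under 0.5, in both genotypes, where 11.4% of genes in WT and 10.7% in cKO were depleted. The median log2 fold change of the 10 genes was -0.01 in WT and 0.05 in cKO. Scaling by library size alone moved the median of all genes to -0.13 in WT and -0.20 in cKO.

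Igf1 was at 0.761, 0.753 and 1.49 CPM in WT IPs and 9.16, 12.2 and 10.2 CPM in WT inputs. In cKO it was at 0.704 and 0.841 CPM in IPs and 9.52 and 9.28 CPM in inputs. Every IP was below every input, with a log2 fold change of -3.45 ± 0.27 (FDR = 5.41e-07), 10.9-fold lower, in WT and -3.62 ± 0.32 (FDR = 6.39e-06), 12.3-fold lower, in cKO. Markers of interneurons, microglia, astrocytes and oligodendrocytes were also lower in IP. The 7 interneuron markers summed to 166 to 195 CPM in WT IPs and 446 to 519 CPM in WT inputs (6 of 7 lower), and the 6 microglia markers to 2.86 to 5.67 and 26.2 to 41.5 CPM (6 of 6 lower). The 5 oligodendrocyte markers summed to 167 to 204 and 322 to 402 CPM (4 of 5 lower), and all 6 astrocyte markers were lower (median -2.85 on the log2 scale). Of 4 tested endothelial and mural cell markers 1 was lower in WT and none in cKO. Their part in the Igf1 values was not tested.

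Ntrk2 was at 157, 203 and 242 CPM in WT IPs and 297, 393 and 340 CPM in WT inputs, and at 163 and 141 CPM in cKO IPs and 242 and 205 CPM in cKO inputs. IPs were below inputs of the same genotype in every case. Ntrk2 had a log2 fold change of -0.84 ± 0.15 (FDR = 0.00107) in WT and -0.58 ± 0.12 (FDR = 0.00307) in cKO, which are 1.79-fold and 1.5-fold lower levels in IP. The 6 astrocyte markers, all lower in IP in both genotypes, summed to 112 to 157 CPM in WT IPs and 757 to 910 CPM in WT inputs, and to 88.9 to 106 and 658 to 659 CPM in cKO. Their part in the Ntrk2 values was not tested. Gene counts sum the full-length and truncated receptor transcripts of Ntrk2.

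Inhba was at 3.56, 4.48 and 6.65 CPM in WT IPs and 8.64, 11.6 and 7.72 CPM in WT inputs, without overlap, and its log2 fold change was -1.0 ± 0.24 (FDR = 0.00757). In cKO IPs it was at 5.44 and 2.10 CPM against 5.61 and 6.07 CPM in inputs, and the log2 fold change of -0.66 ± 0.38 (FDR = 0.222) missed the threshold. It ran from -0.12 (FDR = 0.811) without cKO vDG IP replicate 2 to -1.46 (FDR = 0.000338) without cKO vDG IP replicate 1. Input RNA was taken from the lysate before the pull-down, but the records give IP and input pools of different size, so equal replicate numbers were not read as pairs. With the number as a block, Inhba was called in cKO at -0.77 (FDR = 0.0284) and Bdnf at 0.27 (FDR = 0.0296).

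The other 7 genes were on neither side of the threshold in either genotype. Bdnf was at 88.4, 76.0 and 78.0 CPM in WT IPs and 61.6 and 76.1 CPM in cKO IPs. Nrn1 was at 498, 458 and 326 CPM and 394 and 471 CPM, and Vgf at 14.9, 15.2 and 19.9 CPM and 14.1 and 12.2 CPM. Penk was at 6.65, 9.56 and 7.70 CPM in WT IPs and 7.36 and 8.66 CPM in cKO IPs. Pdyn was at 15.5, 17.6 and 16.6 CPM in WT IPs, above the WT inputs (log2 fold change 0.34 ± 0.16, FDR = 0.138). Nptx2 was at 2.92, 3.53 and 4.03 CPM in WT IPs, also above the WT inputs (0.59 ± 0.27, FDR = 0.125), and in cKO IPs Pdyn was at 12.9 and 13.2 CPM and Nptx2 at 2.35 and 2.82 CPM. Adcyap1 was at 6.69, 8.84 and 9.63 CPM in WT IPs and 5.11 and 5.72 CPM in cKO IPs. These misses do not show equal levels in IP and input.

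**Figure D3:**
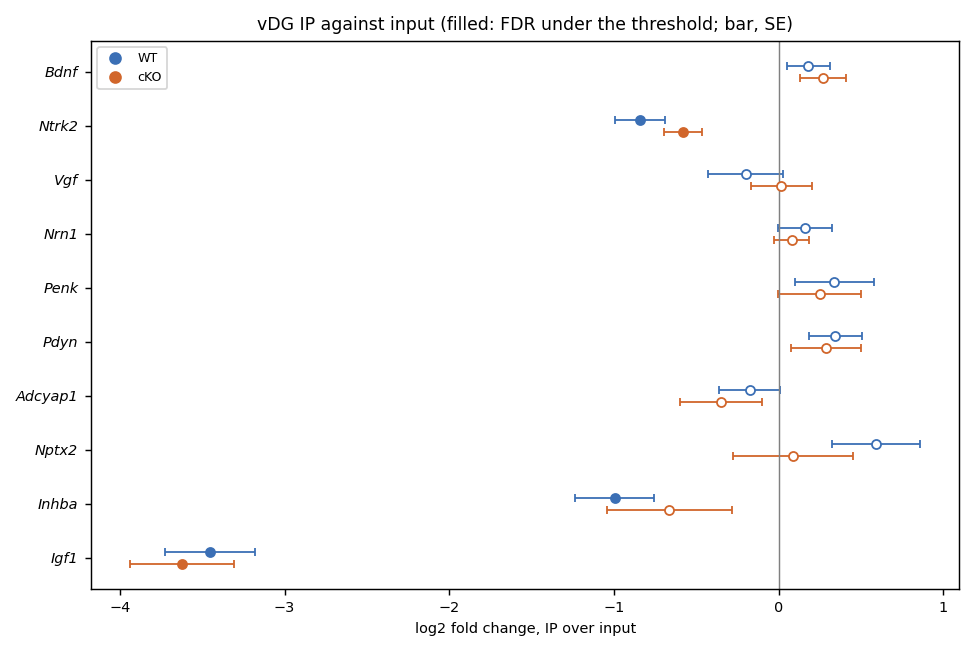
Log2 fold change of vDG IP over input (x axis) for the 10 genes (y axis) in WT (blue) and cKO (orange); bars are the SE and filled points passed an FDR of 0.05. Igf1 lies beyond -3 in both genotypes and Ntrk2 below 0 with filled points, and Inhba is filled in WT alone.

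**Figure D4:**
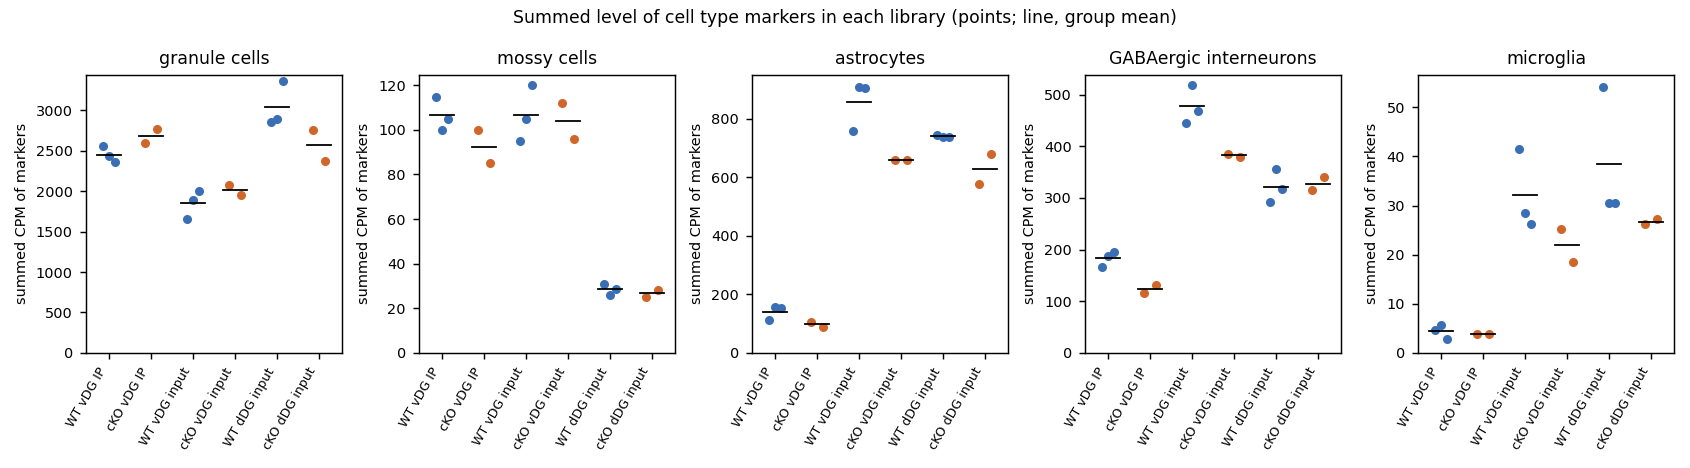
Summed CPM of the markers of 5 cell types (y axis, from 0) in the 15 libraries by group (x axis; blue WT, orange cKO); points are libraries and lines are group means. Astrocyte, interneuron and microglia sums are lowest in the IPs, and mossy cell sums are lowest in dDG inputs (25.2 to 30.8 CPM).

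The third comparison set cKO against WT, which asks what changed with the loss of 5-HT4R. In vDG IP none of the 10 genes passed an FDR of 0.1, where 0.0699% of 14300 genes were higher and 0.35% were lower. Log2 fold changes of the 10 genes ran from -0.59 to 0.05, and 8 were below 0 (median -0.32, of all genes -0.0019). Summed levels of 3 marker lists were below WT in both cKO IPs, with interneuron sums of 116 to 131 CPM in cKO and 166 to 195 CPM in WT (5 of 5 tested markers below 0), astrocyte sums of 88.9 to 106 and 112 to 157 CPM (5 of 6 below 0) and mossy cell sums of 85.1 to 99.9 and 100.1 to 115 CPM (4 of 4 tested below 0). The granule cell sum was above WT in both cKO IPs (2594 to 2773 against 2368 to 2557 CPM, 5 of 6 markers above 0), and the other cell type lists overlapped. Of these markers Gad2 alone was called, as lower. Their part in the values of the 10 genes was not tested. Adcyap1 was lower in both cKO IPs than in all WT IPs (-0.59 ± 0.24, FDR = 0.373), and Ntrk2 overlapped between genotypes (-0.36 ± 0.17, FDR = 0.425). These were the 2 genes with an unadjusted p under 0.05 in edgeR's test, and no alternative called any of the 10.

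In vDG input 1 of the 10 genes was lower and none was higher at an FDR under 0.05, where 2.33% of 15786 genes were lower and 0.108% were higher. Ntrk2 fell from 297, 393 and 340 CPM in WT to 242 and 205 CPM in cKO without overlap, with a log2 fold change of -0.63 ± 0.14 (FDR = 0.0128), 1.55-fold lower. The value was -0.64 (FDR = 0.0503) without WT vDG input replicate 3, and -0.75 (FDR = 0.135) and -0.52 (FDR = 0.261) without cKO vDG input replicate 1 and 2. In the fit over all 15 libraries it was -0.63 (FDR = 0.0649). Astrocyte markers summed to 658 to 659 CPM in cKO and 757 to 910 CPM in WT vDG inputs. All 6 were below 0 (median log2 fold change -0.60), and 3 of 6 were called lower (Aqp4, Gja1 and Slc1a3). Their part in the Ntrk2 difference was not tested.

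Inhba was next, at 5.61 and 6.07 CPM in cKO and 7.72 to 11.6 CPM in WT vDG input (-0.69 ± 0.21, FDR = 0.0867), and it passed without the count filter (-0.69, FDR = 0.0443). Vgf (-0.53 ± 0.22, FDR = 0.246), Adcyap1 (-0.43 ± 0.19, FDR = 0.291) and Bdnf (-0.30 ± 0.14, FDR = 0.320) had negative values that missed the threshold. The Vgf groups overlapped and the others did not. In the same libraries interneuron (380 to 385 in cKO against 446 to 519 CPM in WT) and CA pyramidal cell sums (126 to 136 against 145 to 153) were below WT. So were the sums of microglia (18.6 to 25.3 against 26.2 to 41.5), endothelial and mural cell (6.33 to 7.57 against 8.42 to 10.2) and astrocyte markers. Single CA pyramidal cell markers were mixed, with 3 above 0 and 3 below 0 (1 called lower). Of the interneuron markers 6 of 7 were below 0, as were 6 of 6 microglia and 4 of 5 endothelial and mural cell markers. In addition 1 granule cell marker was called lower and 1 choroid plexus marker higher. The part of these markers in the values of the 10 genes was not tested. Leaving out single libraries, Vgf ran from -0.80 (FDR = 0.00467, without WT vDG input replicate 1) to -0.34 (FDR = 0.538, without WT vDG input replicate 3), and the first was the single case to pass.

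In dDG input none of the 10 genes passed, where 0.0065% of 15383 genes were higher and 0.026% were lower. Vgf was at 5.59 and 4.47 CPM in cKO and 9.47 to 10.9 CPM in WT, a log2 fold change of -1.0 ± 0.19 (FDR = 0.105). DESeq2 gave -0.99 for Vgf with an adjusted p of 0.00561, edgeR gave an FDR of 0.0472 without WT dDG input replicate 1, and the range over all alternatives was 0.000828 to 0.975. Penk was at 24.9 and 28.4 CPM in cKO and 15.7 to 22.3 CPM in WT (0.54 ± 0.16, FDR = 0.198), and Pdyn at 13.3 and 17.0 CPM in cKO and 18.3 to 24.4 CPM in WT (-0.51 ± 0.17, FDR = 0.235). Penk passed without the count filter (0.54, FDR = 0.0371) and without WT dDG input replicate 3 (0.72, FDR = 0.0468). That library was also the highest in the choroid plexus markers (145 CPM against 18.3 to 23.4 CPM in cKO dDG inputs), and the granule cell markers summed to 2379 to 2755 CPM in cKO and 2863 to 3359 CPM in WT dDG inputs. Sums of astrocyte (577 to 678 in cKO against 737 to 745 CPM in WT), microglia (26.2 to 27.3 against 30.5 to 54.1) and oligodendrocyte markers (422 to 427 against 430 to 454) were also below WT without overlap, and that of CA pyramidal cell markers (92.7 to 101 against 73.6 to 88.8) was above. Single markers were mixed, with 4 of 6 granule cell, 4 of 6 astrocyte and 3 of 5 oligodendrocyte markers below 0. Of the CA pyramidal cell markers 3 were above 0 and 3 below 0 (median log2 fold change -0.08). Microglia markers (6 of 6) and tested choroid plexus markers (3 of 3) were below 0. None of these markers was called, and their part in the values of Vgf, Penk and Pdyn was not tested. Penk was above WT and Vgf and Pdyn were below WT in both cKO libraries. The genotype comparisons in vDG input share the WT and cKO vDG inputs with the dorsoventral and IP comparisons.

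**Figure D5:**
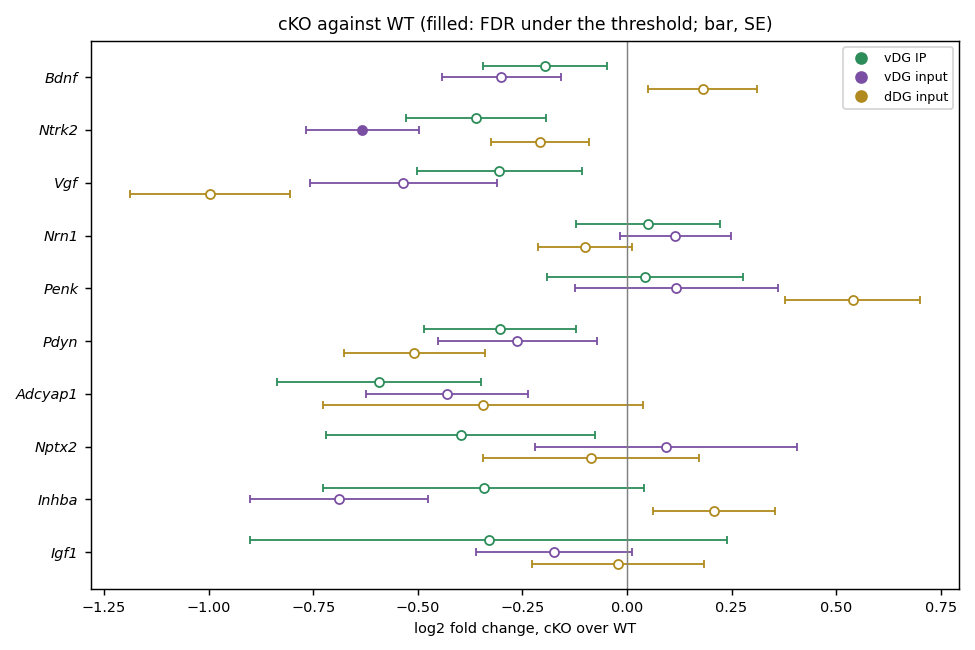
Log2 fold change of cKO over WT (x axis) for the 10 genes (y axis) in vDG IP (green), vDG input (purple) and dDG input (gold); bars are the SE and filled points passed the FDR threshold (0.1 in IP, 0.05 in inputs). The filled point is Ntrk2 in vDG input at -0.63.

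Whether the dorsoventral difference or the IP difference depended on genotype was tested as an interaction. No gene passed an FDR of 0.05 for region (0% of 16306 genes) or for fraction (0% of 16093 genes), with 2010 and 497 genes at an unadjusted p under 0.05. DESeq2 called 0 genes for fraction and 256 for region, none of them among the 10. Without a filter on low counts, 362 genes passed for region, Inhba among them (-0.92, FDR = 0.0242). With the filter Inhba had a region interaction of -0.91 ± 0.26 (FDR = 0.178), Bdnf of -0.50 ± 0.19 (FDR = 0.307) and Ntrk2 of -0.44 ± 0.19 (FDR = 0.352), and the Inhba value lay between -1.07 and -0.69 in all 16 alternatives, of which the one without a filter passed.

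The other genes of the same pathways were followed by list. Among 11 prohormone processing enzymes and granins, which cleave and package neuropeptides, 5 were higher in vDG than dDG in WT: Pcsk1 (1.84), Cpe (1.02), Chgb (0.67), Scg5 (0.64) and Pam (0.44 on the log2 scale), and none was lower, where 9.26% of all genes were higher and 6.09% lower. Pam lost its call without replicate 2 or 3 of the WT vDG or dDG inputs. In cKO 4 were higher and 4 were lower (8.56% and 8.47% of all genes). In the cKO against WT vDG input 5 of 11 were lower (2.33% of all genes; median of the list -0.51, of all genes 0.01): Scg3 (-0.83), Chgb (-0.81), Scg2 (-0.79), Cpe (-0.71) and Pcsk2 (-0.60). These calls depended on single libraries, as Cpe, Scg2 and Pcsk2 lost theirs without either cKO vDG input, Chgb without replicate 1 (and in the fit over all 15 libraries) and Scg3 without replicate 2. In the same libraries 6 of 7 interneuron markers were below 0 with none called, and 3 of 6 astrocyte markers were called lower, with the sums given above. Their part in the values of the list was not tested. In vDG IP none of the 11 passed in that contrast, where all 11 log2 fold changes were below 0 (median of the list -0.34, of all genes -0.0019).

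Among receptors and binding partners of the peptides, Oprd1, the delta opioid receptor that enkephalins bind, was lower in vDG (-1.47 in WT and -1.65 in cKO), as Penk was, and Oprl1, the nociceptin receptor, was higher (0.86 and 1.3). Of 12 tested genes of activin signalling 3 were higher and 4 were lower in vDG in WT, Inhba among them, and 1 and 5 in cKO (9.26% and 6.09% of all genes in WT, 8.56% and 8.47% in cKO). Fst, which encodes the activin-binding follistatin, was lower in vDG (-2.96 in WT and -2.65 in cKO), as was the receptor gene Acvr1c (-0.77 and -1.32). Of 13 IGF genes 1 was higher and 1 lower in vDG in each genotype, near the shares of all genes just given. They were Igfbp3, higher (1.33 in WT and 1.38 in cKO), and Igfbp6, lower (-1.90 and -1.77). Without cKO dDG input replicate 1, Igfbp6 did not pass in cKO. Adcyap1r1, the PACAP receptor, was not called by region, fraction or genotype.

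In vDG IP against input, Igf2 (-3.65 in WT and -4.82 in cKO), Igfbp2 (-3.08 and -2.96) and Igfbp4 (-2.28 and -2.89) were lower with Igf1, while the receptor gene Igf2r (0.85 and 1.13) was higher. Igf1r, the gene of the IGF1 receptor, was called higher in cKO (0.48) and not in WT (0.33). Of the 13 IGF genes 2 were higher and 4 lower in WT, where 7.73% and 16.1% of all genes were. In cKO 3 were higher and 4 lower, where 11.8% and 15.7% of all genes were. Igfbp2 did not pass in cKO without input replicate 1. Of 10 tested hippocampal neuropeptides outside the 10 genes, 6 were lower in WT IP (16.1% of all genes), among them Npy (-4.73) and Sst (-3.24), which interneurons express, and none was higher. In cKO 4 of 8 were lower (15.7% of all genes) and 1 was higher (11.8%), Cck (0.56). Sort1, a sorting receptor that binds BDNF precursor, was higher (0.59 and 0.70).

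The genes whose log2 CPM followed each member most closely over the 15 libraries were found among genes with a mean of 5 CPM or more. For Adcyap1 they were Sstr3 (r = 0.98), Zcchc12 and Efnb2, for Bdnf Kcna4 (0.97), Nrde2 and Mios, for Vgf Sez6 (0.97), St3gal1 and Lrrc4b, and for Igf1 Rorb (0.99), Rftn2 and Sox6. For Penk they were Orai2 (0.96), Atf6 and Med13, for Inhba Osbpl3 (0.96), Xpr1 and Sema6d, for Nrn1 Fam104a (0.96), Sertad4 and 2810025M15Rik, and for Ntrk2 Unc5d, Cntfr and Golgb1 (0.94 each). For Pdyn they were Ust (0.91), Trpm3 and Ptprj, and for Nptx2 Lingo3 (0.91), Sema5a and AB335951. The points share 6 groups, so these values of r describe group differences as well as spread within groups.

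The members lie on GRCm38 (mm10) chromosomes 2 (Bdnf, Pdyn), 4 (Penk), 5 (Vgf, Nptx2), 10 (Igf1), 13 (Ntrk2, Nrn1, Inhba) and 17 (Adcyap1) and are protein-coding. In GENCODE M21, 14.4% of the exon bases of Bdnf, 22.3% of those of Nrn1 and 14.3% of those of Penk overlap exons of a gene on the other strand (Gm45346, Fars2 and A830012C17Rik). The methods give HTSeq at its default settings, and the library kits were taken not to mark strand. How strand was handled in the counts was not checked. Reads of such pairs may not have been told apart or may have been left out. The values of Bdnf, Nrn1 and Penk are uncertain to that extent.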

How the data were processed

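TRAP RNA-seq libraries were analyzed from 15 samples. Counts were deposited by the authors as raw whole-number counts per gene: RNA was amplified (Ovation V2), reads were trimmed, aligned to mm10 with STAR 2.4.2a, freed of duplicates with SAMtools 0.1.19-444 and counted with HTSeq. Rows naming no gene held 24.7 to 37.8% of each library's reads and were left out. Tables of the authors' DESeq2 comparisons (fold changes, p-values, normalized counts) were not used. The tool versions are those of the submitters' processing notes and methods.

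Groups came from sample titles. Counts were filtered with filterByExpr, scaled by TMM and tested with edgeR 4.0.16 (glmQLFit, glmQLFTest; R 4.3.3), each comparison on its own groups, with Benjamini-Hochberg FDR under 0.05 (0.1 for cKO against WT vDG IP). The SE is the log2 fold change divided by the square root of F. Levels are CPM with TMM over 15 libraries; per-kilobase levels use GENCODE M21 exon lengths. Genes alike were ranked by Pearson r of log2 CPM with a prior count of 2. Alternatives were DESeq2 1.42.0, other scaling, no filter, a fit over all libraries, a replicate block and leaving out each library. The scripts were tested on simulated data.

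Named genes were the 10 members, receptors of some members and at most 4 called genes of each pathway list with the largest change. Pam and, beyond 4 in a list, Pcsk2 are named to complete counts of 5. The members and lists were chosen with earlier results of these data known. Libraries of a group differed beyond counting noise, and each is a pool of mice, so p-values measure the spread between pools. Intervals from amplified reads without molecular identifiers would cover counting error only.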

Additional observations from a re-analysis of the deposited data

How the results depend on the processing

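Of 90 fold changes (10 genes in 9 comparisons), 22 changed sign in some alternative, and none of these was called or had an unadjusted p under 0.05. Leaving out single libraries, the number of the 10 genes called was 2 to 4 for cKO IP against input (2), 0 to 2 for cKO against WT vDG input (1) and 0 to 1 for dDG input (0). The replicate block called 4 of the 10 genes in cKO IP against input (Inhba and Bdnf added), 9 against 7 in WT vDG against dDG (Bdnf at -0.34, FDR = 0.0305, and Igf1 at 0.50, FDR = 0.0290, added) and Pdyn in cKO vDG against dDG (-0.54, FDR = 0.0136), moved Vgf in cKO against WT vDG input to -0.27 (FDR = 0.618), gave the Inhba region interaction an FDR of 0.0753, and called 137 genes of all against 5 in cKO against WT dDG input and 148 against 0 for the region interaction. The replicate numbers were not taken to pair the samples, since same-numbered WT IP and input libraries deviated with r = 0.44, -0.12 and -0.28, WT vDG and dDG inputs with 0.38, -0.08 and 0.24, and for cKO, where IP and input of the same number had r = 0.44, 2 pairs are too few to decide. In WT vDG against dDG, 8 against 7 of the 10 genes were called by DESeq2, with library size alone and without a filter (Ntrk2 added). Without a filter, 2 of the 10 genes were called in cKO against WT vDG input (Inhba added), 2 in dDG input and 1 in the region interaction, DESeq2 called 1 in dDG input, and the fit over all libraries called 0 in vDG input. Counts over all genes moved more. For cKO against WT vDG IP the main count of 60 became 357 (DESeq2), 115 (library size), 379 (no filter), 470 (all libraries) and 0 to 184 without single libraries. For vDG input 385 became 626 (DESeq2), 660 (no filter), 140 (all libraries) and 6 to 638. For dDG input 5 became 188 (DESeq2), 378 (no filter), 0 (all libraries) and 0 to 130. For the interactions 0 became 256 (DESeq2), 362 (no filter) and 0 to 48 for region and 12 (no filter) for fraction. For cKO vDG against dDG 2642 became 1360 (all libraries) and 1428 to 3084, and for cKO IP against input 4167 became 2252 to 4344. Library size alone changed the split of higher to lower genes from 1160 and 2422 to 487 and 3022 in WT IP, from 1790 and 2377 to 751 and 3230 in cKO IP and from 1328 and 1314 to 1778 and 943 in cKO vDG against dDG. For WT IP against input, leaving out single libraries gave 2431 to 4225 genes against 3582. Of these, 588 to 1584 were higher, against 1160. The cause of these differences was not tested. Igf1 counts of 15 to 20 in 4 of the 5 IPs limit the precision of its fold change.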
